A study of Mus musculus with 11 samples.

Results

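The genes described here are 10 members of the Notch signalling pathway in mouse NIH/3T3 fibroblasts: the receptors Notch1, Notch2, Notch3 and Notch4, the ligands Jag1, Jag2 and Dll1, and the target genes Hes1, Hey1 and Heyl. They were taken by symbol from a table of 21684 genes and all 10 were found in it. The 11 RNA sequencing libraries fall into 4 genotypes: wild type (WT, 2 libraries), Xap5 KO (3 libraries), Nono KO (3 libraries) and Sox5 KO (3 libraries). All groups, WT included, were NIH/3T3 cells, an established line labelled as mouse embryonic fibroblasts, kept without serum for 24 h, a treatment that halts growth and lets primary cilia form. Xap5 is the older name of Fam50a, and the series asks which genes each knockout alters, shared or unique, during ciliogenesis. The labels do not say how many clones stand behind a knockout, how the allele was made, or whether libraries of 1 genotype came from separate cultures, so each genotype is read as 1 line and p-values measure only the spread between these libraries, which may be technical.

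Notch receptors are cell surface proteins that are activated by Jagged and Delta-like ligands on a neighbouring cell. Ligand binding exposes the receptor to ADAM proteases and then to gamma-secretase, and the freed intracellular domain enters the nucleus, where it joins the DNA-binding protein RBPJ and a Mastermind coactivator and switches on Hes and Hey genes. Hes and Hey proteins are themselves repressors, so the pathway carries its own negative feedback, and in fibroblasts it is known for roles in matrix production and in myofibroblast differentiation.

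RBPJ binds the core sequence TGGGAA, and Hes repressors bind the N-box CACNAG and the E-box CACGTG, so the promoters of the members were searched for these letters on both strands. RefSeq promoters (build GRCm38.p6, 250 bases before to 50 bases after a start) were matched by symbol for 7 of the 10 members, with 8 starts in all, while Hes1, Hey1 and Heyl were not matched. The promoters of Notch1 (chr2:26503773-26504072, minus strand), Notch2 (chr3:98013288-98013587, plus strand) and Jag1 (chr2:137116471-137116770, minus strand) are shown because these genes, among the members with a matched promoter, had the most counts. Each runs 5′ to 3′ along its gene's strand, with N-box matches in capitals.
Notch1: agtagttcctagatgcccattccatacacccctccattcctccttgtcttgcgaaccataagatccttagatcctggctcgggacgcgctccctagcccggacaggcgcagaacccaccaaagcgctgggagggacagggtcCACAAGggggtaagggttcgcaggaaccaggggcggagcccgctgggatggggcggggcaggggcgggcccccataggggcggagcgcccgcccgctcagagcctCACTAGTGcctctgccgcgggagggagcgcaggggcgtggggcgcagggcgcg
Notch2: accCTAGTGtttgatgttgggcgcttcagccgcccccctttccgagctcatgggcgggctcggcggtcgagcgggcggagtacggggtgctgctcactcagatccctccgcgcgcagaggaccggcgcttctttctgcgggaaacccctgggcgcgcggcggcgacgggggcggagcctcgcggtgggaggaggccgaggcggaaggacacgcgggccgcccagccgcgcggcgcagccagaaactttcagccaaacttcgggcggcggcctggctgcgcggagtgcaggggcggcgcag
Jag1: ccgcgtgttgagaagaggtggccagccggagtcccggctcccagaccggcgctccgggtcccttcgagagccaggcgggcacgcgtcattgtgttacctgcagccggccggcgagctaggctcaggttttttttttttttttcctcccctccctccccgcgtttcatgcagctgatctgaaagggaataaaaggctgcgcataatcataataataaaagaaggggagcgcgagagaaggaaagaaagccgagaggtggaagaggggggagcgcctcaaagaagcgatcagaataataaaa
Notch1 holds 3 N-box matches, whose first bases lie at -108, -3 and -1 relative to the start, and the last pair overlap in 1 run of capitals. Notch2 has 1 match, at -247, and Jag1 has none. Among the other members, Notch3 has 2 matches, the second Dll1 start has 1 at position 14, and Jag2, Notch4 and the first Dll1 start have 0. An N-box occurs in 42.5% of the 32851 promoters in the same table. The RBPJ core occurs in 25.6% of them, its longer form GTGGGAA in 6.38% and the E-box in 7.15%, and none of the 3 was found in the 8 member promoters. These matches describe letters only and carry no measurement of binding.

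Library totals ran from 30205878 to 43498383 counts, and 13332 genes passed a filter on low counts and were tested. Levels are CPM, counts divided by the scaled library size and set to a common depth, and a call is an adjusted p under 0.05 in edgeR's quasi-likelihood test over all tested genes. Fam50a fell to 7.75 ± 0.230 CPM in Xap5 KO from 63.8 ± 1.34 in WT, and Nono fell to 31.8 ± 3.70 in Nono KO from 354.1 ± 4.67 (SD, n = 3 and 2). Sox5 stood at 13.5 ± 0.759 CPM in Sox5 KO against 47.8 ± 2.68 in WT, and was also called lower in Xap5 KO (log2 fold change -1.80) and Nono KO (-2.62), so a low Sox5 level is shared by all 3 knockouts. The 9 tested genes of the Y chromosome were lower in all 3 knockouts than in WT. All 10 listed fibroblast markers were detected, and their sum was 48899 to 53784 CPM in Nono KO against 18567 to 24454 CPM in the other genotypes. Fn1, the largest part, averaged 20505 CPM in Nono KO and 13961 CPM in WT, and Col3a1 4904 and 379.2 CPM. Pdgfra (868 and 884 CPM) and Pdgfrb (478 and 487 CPM) hardly differed between these 2, and Pdgfra averaged 432 CPM in Sox5 KO. Lum averaged 51.2 CPM in WT, 202 in Nono KO, 11.6 in Xap5 KO and 3.98 in Sox5 KO. Of the 7 endothelial markers, Emcn and Tie1 were at 0 in every library and Cdh5 and Kdr never passed 6 counts, while Vwf averaged 13.8 CPM in WT, 34.2 in Xap5 KO, 8.92 in Sox5 KO and 1.97 in Nono KO, and Tek 1.80 CPM in Nono KO against 0.275 in WT. Of the 5 blood markers, Ptprc averaged 6.66 CPM in Nono KO and 0.210 CPM or less elsewhere. The others did not share that pattern. Cd68 averaged 1.99 CPM in both Nono KO and WT, 3.02 in Xap5 KO and 2.32 in Sox5 KO, and Cd3e was at 0 in every library. Adgre1 averaged at most 0.0494 CPM in any genotype, and Hbb-bs 0 CPM in Nono KO against 0.276 in WT. The 6 smooth muscle and pericyte markers summed to 302 to 319 CPM in WT and 1575 to 3072 CPM in the knockouts. Acta2 averaged 144.3 CPM in WT and 1635 to 2840 CPM in the knockouts, Cspg4 164.0 CPM in WT and 51.8 to 116.7 CPM in the knockouts, and Myh11 at most 0.613 CPM in any genotype. The part of these line-wide differences in the values below was not tested. In bulk RNA, fewer cells of a kind and less RNA per cell cannot be told apart.

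Of the 9 members tested, 5 were called in Xap5 KO against WT (1 higher, 4 lower), 6 in Nono KO (3 higher, 3 lower) and 5 in Sox5 KO (0 higher, 5 lower). Heyl, at 6 counts in 1 Xap5 KO library and 0 in the other 10, did not pass the filter. Calls were common in these comparisons: 45.5% of all tested genes were called in Xap5 KO (23.2% higher, 22.3% lower), 48.6% in Nono KO (23.5% higher, 25.1% lower) and 60.9% in Sox5 KO (30.6% higher, 30.3% lower). The number of members called therefore lies near the background in each knockout. The 3 comparisons share the 2 WT libraries. The median log2 fold change of the tested members was -0.999 for Sox5 KO, -0.88 for Xap5 KO and -0.06 for Nono KO, beside -0.01, 0.00 and -0.02 over all tested genes. It was the same with genes at 0 set to their bound. With 9 genes each median is the value of 1 sparse gene that was not called. That gene was Notch3 in Sox5 KO (SE 1.20) and Jag2 in Xap5 KO (SE 0.707) and Nono KO (SE 0.702), so the medians do not measure a shift of the set. The Sox5 KO values also varied with transcript length, as given below. By size, the absolute log2 fold change of Notch1 exceeded that of 91.6% of tested genes in Xap5 KO and 92.9% in Nono KO. That of Jag1 exceeded 94.7% in Nono KO, and that of Notch2 exceeded 89.3% in Sox5 KO. That of Hes1 exceeded 90.5%, 91.2% and 90.8% in the 3 knockouts in turn. Notch1, Jag1 and Notch2 ranked lower elsewhere. With Sox5 KO, Notch1 exceeded 42.8% of tested genes and Jag1 66.0%. Notch2 exceeded 57.4% with Nono KO. The Xap5 KO ranks of Notch2 and Jag1 were 2.95% and 24.6%. Ranks of the sparse members are not given.

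**Figure D1:**
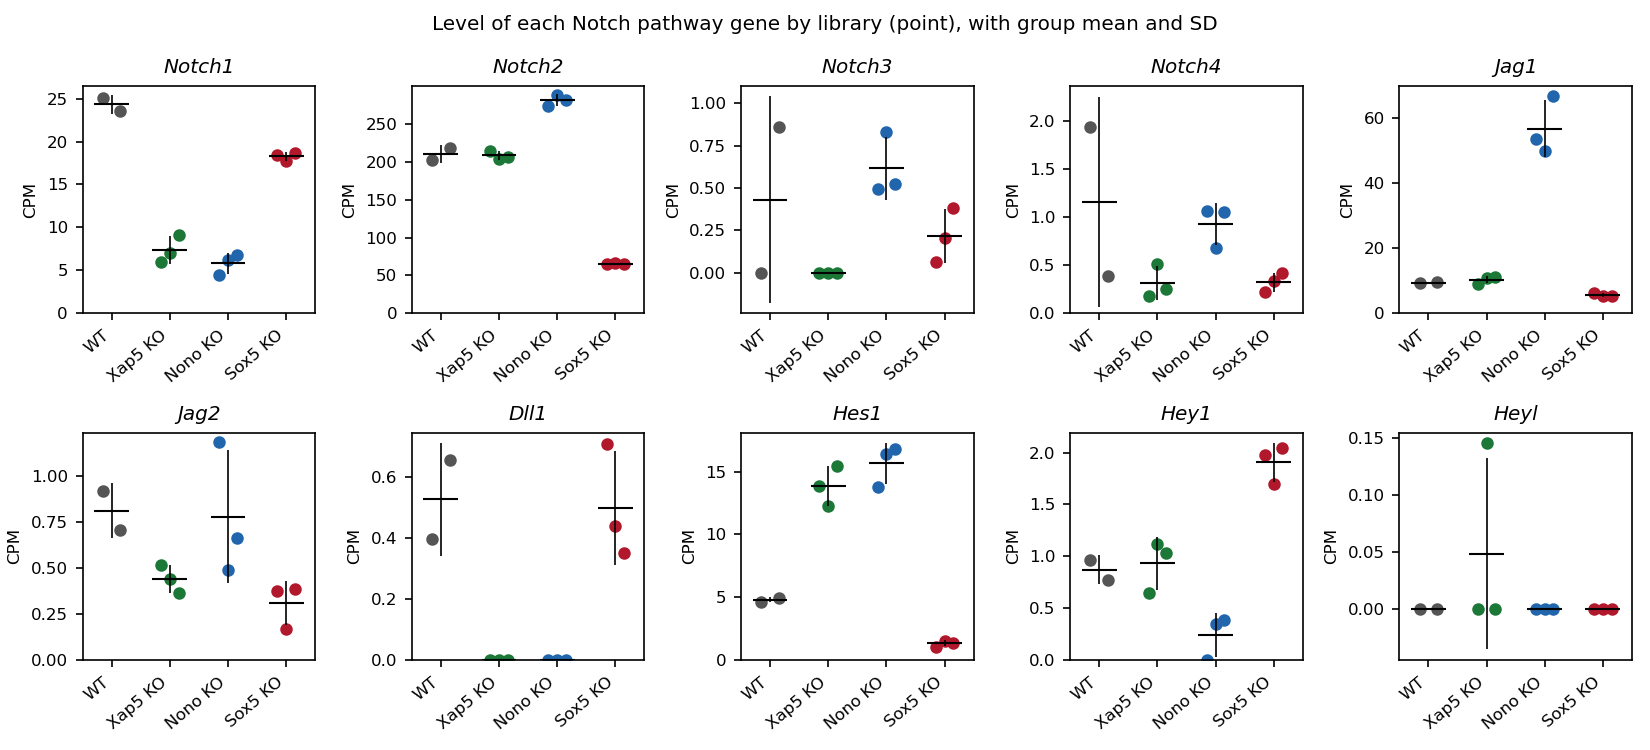
Level of each of the 10 genes in CPM (vertical axis) for the 11 libraries, grouped by genotype; points are libraries, horizontal bars group means and vertical bars the SD (n = 2 for WT, 3 for each knockout). Notch1 stands at 4.47 to 9.09 CPM in Xap5 KO and Nono KO against 23.6 to 25.1 in WT, Jag1 at 49.9 to 66.7 CPM in Nono KO, and Hes1 at 1.05 to 1.52 CPM in Sox5 KO.

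Notch1 encodes the receptor best known from T cell leukaemia and developmental patterning. It was measured at 25.1 and 23.6 CPM in WT. The Xap5 KO libraries held 5.94, 6.99 and 9.09 CPM and the Nono KO libraries 4.47, 6.26 and 6.77 CPM, while the Sox5 KO libraries held 18.5, 17.7 and 18.6 CPM. Every Xap5 KO and Nono KO library lay below every Sox5 KO library, and every Sox5 KO library below both WT libraries. Notch1 fell 3.32-fold in Xap5 KO (log2 fold change -1.73, SE 0.169, adjusted p = 3.67e-08) and 4.18-fold in Nono KO (-2.06, SE 0.171, adjusted p = 2.13e-09), both in edgeR. The difference between these 2 knockouts was not called (0.33, SE 0.161, adjusted p = 0.0881), and their libraries overlapped, but it was called with library totals as the scaling (0.45, adjusted p = 0.0275) and without Xap5 KO replicate 1 (0.45, adjusted p = 0.0277) or Nono KO replicate 3 (0.45, adjusted p = 0.0378). In Sox5 KO the log2 fold change was -0.41 (SE 0.167, adjusted p = 0.0369), a call that was lost without either WT library or any Sox5 KO library (adjusted p 0.0699 to 0.156) and that became 0.26, not called, with a length and GC offset (a term in the fit for each gene's transcript length and GC content). The Notch1 gene model overlaps exons of 0610009E02Rik and Gm13568 on the opposite strand. Strand use is not given in the sources used here, so reads in the overlap cannot be assigned to 1 gene with certainty.

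Notch2 encodes the main receptor of these cells by level. WT held 202 and 219 CPM. Xap5 KO held 214, 204 and 206 CPM, Nono KO 273, 289 and 281 CPM, and Sox5 KO 64.6, 66.9 and 65.6 CPM. The 3 Sox5 KO libraries were the lowest of the 11 and the 3 Nono KO libraries the highest, with no overlap. Notch2 fell 3.20-fold in Sox5 KO (log2 fold change -1.68, SE 0.0575, adjusted p = 8.95e-16) and rose 1.34-fold in Nono KO (0.42, SE 0.0576, adjusted p = 3.80e-06). Xap5 KO did not differ by call from WT (-0.01, SE 0.0571, adjusted p = 0.858) and overlapped it. All 3 differences between knockouts were called: Xap5 KO lay below Nono KO by 0.43 and above Sox5 KO by 1.67 on the log2 scale, and Nono KO exceeded Sox5 KO 4.28-fold. The order of the levels was thus Nono KO, then WT and Xap5 KO, which do not differ beyond their spread, then Sox5 KO. The Notch2 gene model overlaps exons of Gm42820 on the same strand over 541 bases, so reads in that overlap cannot be assigned to 1 gene.

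The Sox5 KO values varied with transcript length. Across 13293 tested genes with a length, the log2 fold change of Sox5 KO against WT had a Spearman rho of -0.37 with transcript length, compared with -0.09 in Xap5 KO and -0.11 in Nono KO (a description across genes, which are not independent). Notch2, with a longest transcript of 10.5 kb, kept its call in Sox5 KO with the length and GC offset, at a smaller log2 fold change of -1.01 (adjusted p = 1.83e-12). Its change in Nono KO was 0.49 with the same offset.

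Notch3 and Notch4, receptors typical of mural cells and endothelium respectively, were near the limit of detection. Notch3 had 0 and 38 counts in WT, 0 in each Xap5 KO library, 20, 34 and 19 in Nono KO, and 2, 6 and 12 in Sox5 KO. The Xap5 KO libraries were thus all at 0, as was 1 of the WT libraries. With a floor of 3 counts per library, the Xap5 KO level of Notch3 was at least 8.12-fold lower than that of Nono KO (adjusted p = 0.0021) and at least 2.85-fold lower than that of Sox5 KO (adjusted p = 0.0132; 0.0516 without Sox5 KO replicate 3). The call against WT (at least 5.69-fold lower, adjusted p = 0.00631) rested on WT replicate 2 alone and was lost without it, and neither Nono KO nor Sox5 KO was called against WT (fitted 0.50 and -0.999, with values of 7.53, called, and 6.02 without that library). Notch3 shares exon sequence with Gm17276 on the opposite strand. Notch4 had 78 and 17 counts in WT, 7, 21 and 10 in Xap5 KO, 43, 28 and 38 in Nono KO and 7, 10 and 13 in Sox5 KO. The WT libraries differed from each other by more than those of any knockout did, and every knockout overlapped WT. Its log2 fold change was -1.86 in Xap5 KO (SE 0.749, adjusted p = 0.0485) and -1.83 in Sox5 KO (SE 0.759, adjusted p = 0.0424), both called. Without WT replicate 1 these values were -0.29 and -0.26. Both calls were lost with the length and GC offset (adjusted p = 0.0763 and 0.177). The Xap5 KO call was also lost with no filter (0.0531), in a fit of the 2 groups alone (0.0781) and without Xap5 KO replicate 1 (0.122) or 3 (0.0984). Leaving out Nono KO replicate 1 or 3 or any 1 Sox5 KO library lost it too (0.0532 to 0.0599). The Sox5 KO call was lost without any 1 Sox5 KO library (0.0608 to 0.123). Nono KO was not called (-0.31, adjusted p = 0.753). All Nono KO libraries had more Notch4 than those of Xap5 KO and Sox5 KO, differences that were not called in edgeR (adjusted p = 0.0684 and 0.0672) and were called in DESeq2 (adjusted p = 0.0394 and 0.0411).

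Compared per kilobase of longest transcript, so that genes can be set beside each other, the 4 receptors summed to 22.8 CPM per kb in WT (22.2 and 23.5 in its libraries). The sum was 27.6 ± 0.837 for Nono KO, 20.7 ± 0.407 for Xap5 KO and 8.26 ± 0.102 for Sox5 KO (SD, n = 3 each). The sums, shares and ranks in this paragraph carry no length and GC offset. With that offset the log2 fold change of Notch2 in Sox5 KO was -1.01 in place of -1.68. That of Notch1 was 0.26, not called, in place of -0.41, so the Sox5 KO sum and shares hold the length trend too. Notch2 made up 87.7 ± 1.38% of that sum in WT, and the share was 97.0 ± 0.394% for Nono KO, 96.0 ± 0.863% for Xap5 KO and 75.8 ± 0.798% for Sox5 KO. Notch1 made up 11.3 ± 0.942% in WT, with 23.3 ± 0.788% for Sox5 KO, 3.75 ± 0.839% for Xap5 KO and 2.22 ± 0.414% for Nono KO. The Notch1 share lay below WT in Xap5 KO and Nono KO and above WT in Sox5 KO, where Notch2 fell. No 2 genotypes overlapped in it, and Xap5 KO (2.97 to 4.64%) and Nono KO (1.76 to 2.57%) were the closest. Notch3 and Notch4 each averaged under 1% in every genotype. On the same per-kilobase scale Notch2 stood above 75.5% of tested genes in WT, 81.9% in Nono KO, 75.1% in Xap5 KO and only 44.9% in Sox5 KO, and Notch1 above 28.1%, 16.3%, 17.9% and 26.1% in the same order.

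**Figure D2:**
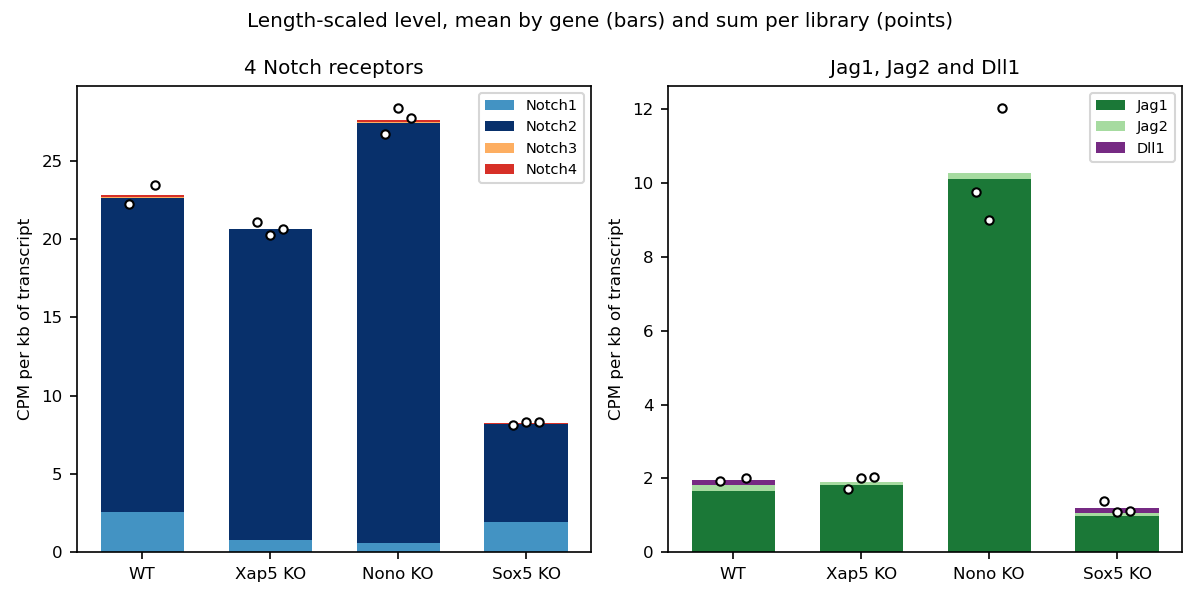
Summed level in CPM per kb of longest transcript (vertical axis) of the 4 receptors (left) and of Jag1, Jag2 and Dll1 (right) in the 4 genotypes; coloured segments are group means of each gene and white points the sum in each library. Notch2 fills most of every receptor bar, the Sox5 KO receptor sum is 8.26 against 22.8 in WT, and the ligand sum of Nono KO is 10.3 against 1.97. The levels carry no length and GC offset, with which the fall of Notch2 in Sox5 KO was smaller.

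Jag1 encodes the Jagged ligand that presents a signal to neighbouring cells and is known to be needed in the vasculature and liver. The WT libraries held 9.18 and 9.49 CPM. Nono KO libraries reached 53.5, 49.9 and 66.7 CPM, Xap5 KO libraries 9.01, 10.8 and 11.0 CPM, and those of Sox5 KO 6.22, 5.25 and 5.29 CPM. All 3 Nono KO libraries lay far above every library of the other genotypes, and the Sox5 KO libraries were the lowest of all. Jag1 rose 6.08-fold in Nono KO (log2 fold change 2.60, SE 0.141, adjusted p = 2.18e-12) and fell 1.67-fold in Sox5 KO (-0.74, SE 0.140, adjusted p = 0.000108). With the length and GC offset the Sox5 KO value was -0.46 and still called (adjusted p = 0.00884), and the Nono KO value was 2.62. In Xap5 KO Jag1 overlapped WT and was not called (0.14, SE 0.135, adjusted p = 0.437). Between knockouts, Nono KO exceeded Xap5 KO 5.52-fold and Sox5 KO 10.1-fold, and Xap5 KO exceeded Sox5 KO 1.84-fold, all 3 called. With the offset the log2 differences from Sox5 KO were 3.09 for Nono KO and 0.61 for Xap5 KO, in place of 3.34 and 0.88, and still called.

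Jag2, the second Jagged ligand, had 37 and 31 counts in WT, 48, 20 and 24 in Nono KO, 20, 18 and 14 in Xap5 KO, and 12, 5 and 12 with Sox5 KO. The Xap5 KO and Sox5 KO libraries lay below both WT libraries, yet none of the 6 comparisons was called for Jag2 in the fit of all libraries (log2 fold change against WT -0.88 with SE 0.707 for Xap5 KO, -0.06 with SE 0.702 for Nono KO, and -1.38 with SE 0.726 for Sox5 KO). In a fit of the 2 groups alone Jag2 was called lower in Sox5 KO than in WT (-1.39, adjusted p = 0.0444; 0.107 in the fit of all libraries) and higher in Nono KO than in Sox5 KO (adjusted p = 0.0485; 0.0917 in the fit of all libraries and 0.0478 in DESeq2). At this depth the standard errors leave a 2-fold difference within reach in either Xap5 KO or Sox5 KO.

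Dll1, a Delta-like ligand, split the genotypes into 2 sets. It had 16 and 29 counts in WT and 23, 13 and 11 in Sox5 KO, but 0 in all 3 Xap5 KO and all 3 Nono KO libraries. With the floor of 3 counts per library, the level of Dll1 in Xap5 KO was at least 6.96-fold lower than in WT (adjusted p = 0.00186) and the bound for Nono KO against WT was 6.88-fold (adjusted p = 0.00169). Against Sox5 KO the bounds were 6.60-fold (adjusted p = 0.001) and 6.53-fold (adjusted p = 0.000983). Sox5 KO and WT overlapped and did not differ by call (-0.07, SE 1.02). Dll1 overlaps A930024N18Rik on the opposite strand over 867 bases of exon, so the few reads it has may belong to either gene.

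On the per-kilobase scale the 3 ligands summed to 1.97 ± 0.0605 CPM per kb in WT (SD, n = 2). Nono KO reached 10.3 ± 1.57, compared with 1.91 ± 0.182 for Xap5 KO and 1.20 ± 0.159 for Sox5 KO (SD, n = 3). Jag1 was the leading ligand in every genotype, at 98.5 ± 0.754% of the sum for Nono KO, 95.4 ± 1.24% for Xap5 KO, 84.5 ± 0.634% for WT and 83.5 ± 2.82% for Sox5 KO. Dll1 made up 7.44 ± 2.39% in WT and 11.5 ± 2.82% in Sox5 KO. Jag1 stood above 23.5% of tested genes in WT and above 56.7% in Nono KO.

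Hes1, a basic helix-loop-helix repressor and the best known direct target of Notch, was the member that moved in opposite directions between knockouts with the largest gap. WT held 4.64 and 4.92 CPM. Xap5 KO held 13.9, 12.3 and 15.5 CPM, Nono KO 13.8, 16.4 and 16.8 CPM, and Sox5 KO 1.05, 1.52 and 1.34 CPM. All 6 libraries of Xap5 KO and Nono KO were above WT and all 3 of Sox5 KO below it. Hes1 rose 2.90-fold in Xap5 KO (log2 fold change 1.53, SE 0.176, adjusted p = 3.63e-07) and 3.27-fold in Nono KO (1.71, SE 0.176, adjusted p = 6.45e-08), and fell 3.66-fold in Sox5 KO (-1.88, SE 0.194, adjusted p = 3.46e-08). Xap5 KO and Nono KO overlapped and their difference was not called (-0.17, SE 0.145, adjusted p = 0.330). Sox5 KO lay 10.6-fold below Xap5 KO and 12.0-fold below Nono KO, both called. With the length and GC offset the 3 values against WT were 1.36, 1.54 and -2.39, all called. Hes1, with a longest transcript of 1.47 kb, is the shortest member, and its fall in Sox5 KO ran against the length trend of that comparison. On the per-kilobase scale Hes1 stood above 31.3% of tested genes in WT, 58.3% in Nono KO, 54.3% in Xap5 KO and 19.6% for Sox5 KO.

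Hey1, a Hes-related repressor, was sparse and took another order. It had 39 and 34 counts in WT, 25, 46 and 40 in Xap5 KO, 0, 14 and 14 in Nono KO and 64, 50 and 64 in Sox5 KO. The Nono KO libraries were the 3 lowest and the Sox5 KO libraries the 3 highest. Between knockouts Hey1 was 7.85-fold lower in Nono KO than in Sox5 KO (log2 difference -2.97, SE 0.707, adjusted p = 0.000974; -2.38 without Nono KO replicate 1, which had 0 counts, and still called) and 3.84-fold higher in Xap5 KO than in Nono KO (1.94, SE 0.700, adjusted p = 0.0243; not called at 1.35 without Nono KO replicate 1 or at 1.77 without Xap5 KO replicate 2). Against WT the Nono KO value (-1.84, SE 0.753) passed narrowly at adjusted p = 0.0491. It did not pass with RLE size factors (0.0508), upper-quartile scaling (0.0511) or in a fit of the 2 groups alone (0.147). The call was also lost without Xap5 KO replicate 2 (0.0559), Nono KO replicate 1 (-1.25) or any 1 Sox5 KO library (0.0676 to 0.0727). The value was -1.66 without WT replicate 1 and -1.99 without WT replicate 2. Hey1 in Sox5 KO was not called in the fit of all 11 libraries (1.13, SE 0.728, adjusted p = 0.189) and was called in a fit of the 2 groups alone (adjusted p = 0.0172). In Xap5 KO it overlapped WT (0.10, not called). By group mean, Hes1 and Hey1 thus had different orders: Nono KO was highest for Hes1 and lowest for Hey1, and Sox5 KO the reverse. For Hes1, however, Nono KO overlapped Xap5 KO and the difference between them was not called. Heyl was listed at 0 in 10 of 11 libraries.

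**Figure D3:**
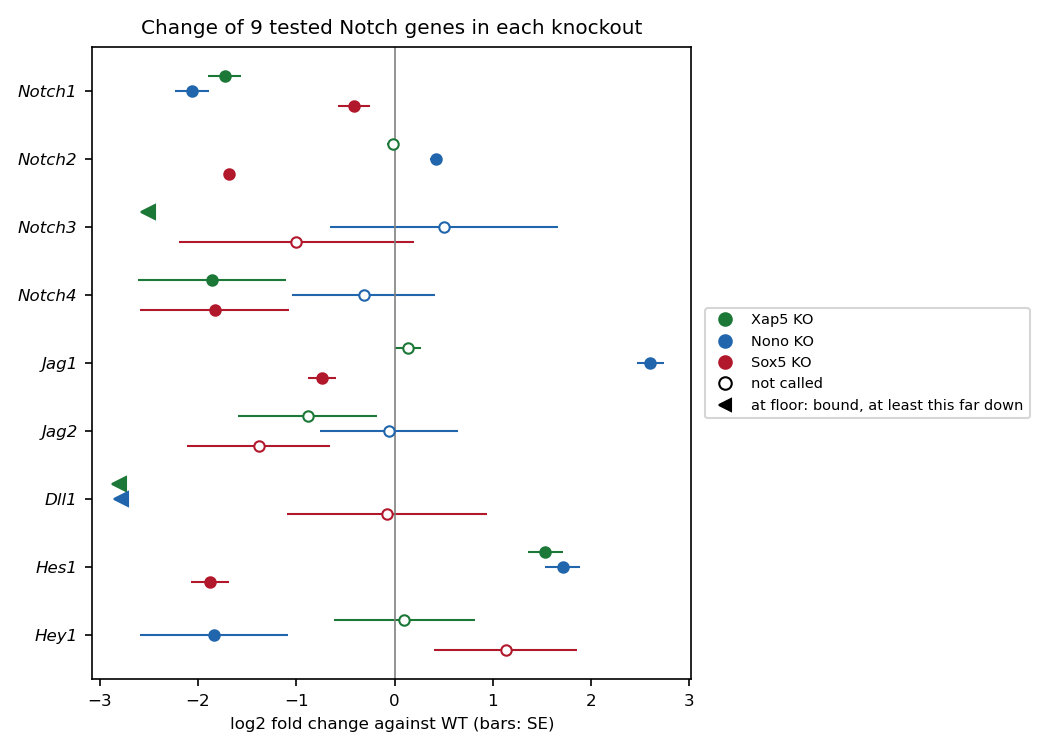
Log2 fold change of the 9 tested genes against WT (horizontal axis) in the 3 knockouts; circles are fitted values with bars for 1 SE, filled where called and open where not, and triangles mark the bound for genes at 0 in all libraries of a knockout. Jag1 in Nono KO lies farthest right at 2.60, and Hes1 lies at 1.53 and 1.71 in Xap5 KO and Nono KO but at -1.88 in Sox5 KO.

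Set against each other, the knockouts differed in 4 of 9 tested members between Xap5 KO and Nono KO (1 higher and 3 lower in Xap5 KO, where 53% of all tested genes were called), in 6 between Xap5 KO and Sox5 KO (3 higher, 3 lower; 61.6% of all genes) and in 6 between Nono KO and Sox5 KO (3 higher, 3 lower; 63.5%). These counts are close to the shares over all genes. The 4 members that separated Xap5 KO from Nono KO were Notch2, Notch3 and Jag1, lower in Xap5 KO, and Hey1, higher in it. Notch1 and Hes1, by contrast, did not differ by call between these 2 knockouts and differed from Sox5 KO in both. The intervals still leave room for a difference: the log2 difference between Xap5 KO and Nono KO was 0.33 with SE 0.161 for Notch1 and -0.17 with SE 0.145 for Hes1.

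The genes with the closest pattern to each member across the 11 libraries were found by Pearson's r of log2 CPM, given as a description since libraries of 1 genotype share that genotype. Notch1 was most like Galnt15 (r = 0.982) and Arl6ip1 (r = 0.980), and Arl6ip1 averaged 20.9 CPM in WT, 15.5 in Sox5 KO, 2.92 in Xap5 KO and 1.97 in Nono KO. Notch2 was most like Herc1 and Rock2 (r = 0.994 for both), and Rock2 averaged 228.0, 97.0, 212.9 and 288.8 CPM in the same order. Jag1 was most like Hif1a and Frmd6 (r = 0.988 for both), and Frmd6 reached 207.8 CPM in Nono KO against 100.5 in WT. Dll1 was most like Uhrf2 (r = 0.987) and Ndn (r = 0.986), the latter at 35.7 CPM in WT, 37.7 in Sox5 KO, 0 in Xap5 KO and 0.0244 in Nono KO. Hes1 was most like Adgrl2 (r = 0.994) and Zfpm2 (r = 0.992), and Zfpm2 averaged 3.79 CPM in WT, 26.5 in Nono KO, 19.1 in Xap5 KO and 0.258 in Sox5 KO. Hey1 was most like Dusp15 (r = 0.971) and C9orf72 (r = 0.966). The other members had weaker matches: Jag2 with Cbx3 (r = 0.924) and Polr3f (r = 0.9005), Notch4 with Gm50253 (r = 0.888), and Notch3 with Tuft1 (r = 0.883) and Sema4g (r = 0.879).

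The rest of the pathway was read from a list of 57 further genes, of which 49 passed the filter. In Xap5 KO 16 of the 49 were called (8 higher, 8 lower), in Nono KO 29 (10 higher, 19 lower) and in Sox5 KO 30 (9 higher, 21 lower), against the shares of 45.5%, 48.6% and 60.9% over all genes. Their medians were -0.02, -0.11 and -0.15, and in each knockout 5 of the 49 were called with a change of at least 2-fold. Scaling by library totals alone, which puts the median log2 fold change of all genes at -0.05, -0.18 and -0.12 in the 3 knockouts, gave 6 higher and 15 lower, 6 and 27, and 6 and 26. Over all 13332 tested genes that scaling called 2652 higher and 3395 lower, 2157 and 4989, and 3340 and 4798. With the length and GC offset Sox5 KO had 9 higher and 14 lower. The shares over all genes here and in the paragraphs below come from the fit without the offset.

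Among ligands outside the 10 genes, Dlk1 showed the clearest change. Dlk1 is a membrane protein related to Delta that lacks the domain by which Delta activates Notch and is known as an inhibitor of fat cell formation. It averaged 1555 ± 50.1 CPM in WT (SD, n = 2), with 319.0 ± 6.77 for Nono KO, 265.4 CPM for Xap5 KO (SD 15.003) and 199.5 ± 8.87 for Sox5 KO (n = 3 each), so every knockout library lay well below WT. It fell 4.87-fold in Nono KO (log2 fold change -2.29, SE 0.0599, adjusted p = 1.58e-17), 5.86-fold in Xap5 KO (-2.55, SE 0.0603, adjusted p = 5.28e-18) and 7.79-fold in Sox5 KO (-2.96, SE 0.0611, adjusted p = 7.58e-19). Its relative Dlk2 fell 6.69-fold in Nono KO (-2.72, adjusted p = 5.20e-05) and narrowly passed in Xap5 KO (-1.08, adjusted p = 0.0497; 0.0503 with the length and GC offset), with 2.77 ± 0.225 CPM in WT.

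Enzymes that add sugars to the receptor were called higher for 5 of 6 tested in Nono KO (4 of 6 with the length and GC offset), 2 of 6 in Xap5 KO and 2 of 6 in Sox5 KO, where Poglut3 was called lower (-0.19). Over all tested genes 23.5%, 23.2% and 30.6% were called higher in these knockouts. Lfng, a Fringe glycosyltransferase that changes which ligands a receptor responds to, averaged 0.741 ± 0.181 CPM in WT. It rose 2.35-fold in Xap5 KO (1.23, SE 0.421, adjusted p = 0.0215) and 3.32-fold in Nono KO (1.73, SE 0.425, adjusted p = 0.00193). The Xap5 KO call was lost in an edgeR fit of the 2 groups alone (adjusted p = 0.0603) and without Xap5 KO replicate 2 (0.0562), and the value was 0.99 without WT replicate 2. Poglut3, an O-glucosyltransferase, rose in Nono KO (0.64, SE 0.0635) and Poglut2 rose in Sox5 KO (0.57, SE 0.0855). Rfng, another Fringe enzyme, was called higher in all 3 knockouts (0.67 in Sox5 KO, 0.39 in Xap5 KO and 0.27 in Nono KO). The Rfng call in Nono KO was lost with library totals (0.10) and without Nono KO replicate 1 or 3 or Sox5 KO replicate 3. Without WT replicate 1 the Rfng value was 0.17 in Nono KO and 0.27 in Xap5 KO. The ubiquitin ligases that let ligands be taken up into the signal-sending cell had 3 of 4 called in each knockout (1 higher and 2 lower in Xap5 KO, 3 lower in each of the others, though 1 lower in Sox5 KO and 2 lower in Nono KO with the offset), where 45.5% of all genes were called in Xap5 KO, 60.9% in Sox5 KO and 48.6% in Nono KO. Neurl1b rose 3.41-fold in Xap5 KO (1.77, SE 0.336, adjusted p = 0.000198) and Neurl1a fell 2.30-fold in Nono KO (-1.20, SE 0.263, adjusted p = 0.000706). Mib1, the main such ligase, fell in Nono KO (-0.65, SE 0.0683) and Sox5 KO (-0.59, SE 0.0685), the latter becoming 0.09, not called, with the offset.

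Of the 10 receptor proteases and gamma-secretase subunits, 6 were called in Sox5 KO, 4 in Nono KO and 3 in Xap5 KO, in both directions in each and at or below the shares over all genes just given. With the offset the counts were 5, 7 and 5. Adam17, a shedding protease, fell in Xap5 KO (-0.59, SE 0.0662) and Sox5 KO (-0.87, SE 0.0665), and Furin, which cleaves the receptor during its maturation, fell in Nono KO (-0.54, SE 0.0600). The nuclear activation complex had 6 of 7 members called lower in Sox5 KO, where 30.3% of all genes were called lower, but 3 lower and 1 higher with the length and GC offset. Maml3, a Mastermind coactivator, fell 2.33-fold in Sox5 KO (-1.22, SE 0.103; -0.70 with the offset) and 1.72-fold in Nono KO (-0.78, SE 0.102; -0.72 with the offset), and Kat2b, an acetyltransferase, rose in Xap5 KO (0.77, SE 0.0931). Corepressors were called for 7 of 10 genes in Sox5 KO (4 with the offset), 4 in Nono KO and 2 in Xap5 KO (6 with the offset), against 60.9%, 48.6% and 45.5% of all genes. Kdm5a, a histone demethylase, fell 2.55-fold in Sox5 KO (-1.35, SE 0.0732; -0.62 with the offset), Spen fell 2.06-fold there (-1.04, SE 0.103; -0.20 with the offset), Tle1 rose in Xap5 KO (0.80, SE 0.0740) and Ctbp1 fell in Nono KO (-0.44, SE 0.0634). Dtx4, a Deltex ubiquitin ligase that acts on the receptor, rose in all 3 knockouts, from 31.3 ± 2.50 CPM in WT to 70.0 ± 3.98, 65.2 ± 2.40 and 71.5 ± 4.63 (log2 fold change 1.16, 1.06 and 1.19, SE 0.0835, 0.0833 and 0.0838).

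The other Hes, Hey and feedback genes on the list were mostly sparse or absent in these cells, apart from Hes6, which averaged 21.3 CPM in WT. They were listed by family and role, and not each is an established target of Notch. Of 7 listed, only Hes6 and Hes7 passed the filter, and Hes2, Hes5 and Nrarp were at 0 in all 11 libraries. Hes6, which is known to oppose Hes1, fell in Nono KO (-0.44, SE 0.116), rose in Sox5 KO (0.38, SE 0.117) and was not called in Xap5 KO (-0.08). The Sox5 KO value was 0.14 with the offset and 0.26 with library totals as the scaling, not called in either. The direction of Hes6 in Nono KO and Sox5 KO was the opposite of that of Hes1 in the same libraries. In Xap5 KO, Hes1 was called higher while Hes6 was not called.

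**Figure D4:**
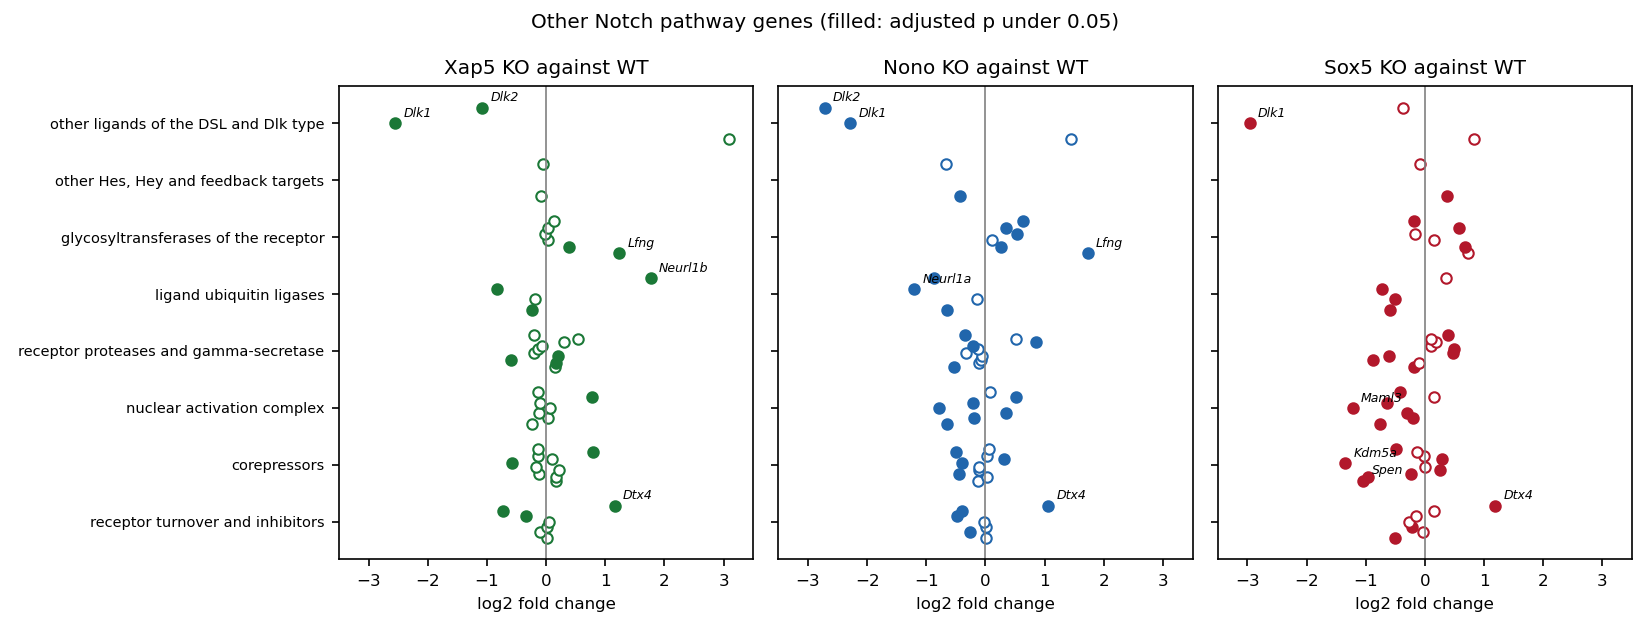
Log2 fold change against WT (horizontal axis) of the 49 tested pathway genes outside the 10 members, by functional list (rows), in Xap5 KO (left), Nono KO (middle) and Sox5 KO (right); filled points were called at adjusted p under 0.05, and genes called with at least 2-fold change are named. Dlk1 lies at -2.55, -2.29 and -2.96 and Dtx4 at 1.16, 1.06 and 1.19, while most genes lie within 1 log2 unit of 0.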

How the data were processed

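RNA was extracted with TRIzol and made into libraries with an NEBNext Ultra II kit, per the labels' protocols. The authors deposited 1 table of whole-number values per gene and library, read here as estimated counts, with no normalization; values of 2 (3302) outnumber values of 1 (857), so mates may have been counted separately. The submitters' processing notes name HISAT2 2.1.0, StringTie 1.3.3b, DESeq2 1.12.4 and build GRCm39 (mm39), without roles; strand use is not given in the sources used here. Values were used as deposited. Genes were tested with edgeR 4.0.16 (R 4.3.3, TMM scaling, quasi-likelihood with robust estimation, all 11 libraries in 1 fit) after filterByExpr (minimum count 10, minimum total 15), with Benjamini-Hochberg adjustment over 13332 genes; SE is the absolute log2 fold change over the square root of F. The common biological coefficient of variation was 10.6%. Precision is limited by counting, and the fold floor of 3 counts per library covers counting error only. Transcript lengths and gene overlaps came from GENCODE M21 (21591 of 21684 IDs matched); no gene coordinates are given because that annotation is of an older build, and the promoter coordinates are those of the RefSeq GRCm38.p6 table. The script was tested on simulated data.

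The members and gene lists were chosen with earlier results of these data known. Named in the text are all members, the 3 targeted genes, pathway genes called at 2-fold or more or with the smallest adjusted p of their list, and per member the 2 genes of highest correlation (mean of at least 1 CPM, prior count 2), of which 1 is not reported here; other genes, such as the cell type markers and Hes2, were singled out after their values were seen. Alternatives were RLE, upper-quartile and library-total scaling, no filter, at least 10 counts in every library, a replicate block, the groups compared alone, DESeq2 1.42.0, a 2-fold minimum, each library left out, and, chosen after seeing the data, a length and GC offset.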

Additional observations from a re-analysis of the deposited data

How the results depend on the processing

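With 2 WT libraries and 3 per knockout, the sparse members (Notch3, Notch4, Jag2, Dll1 and Hey1, each averaging under 2 CPM in every genotype) had log2 SEs of 0.6 or more, which limits what can be called. The calls of Notch1 and Hes1 in Xap5 KO and Nono KO, of Notch2 in Nono KO and Sox5 KO, of Jag1 in Nono KO and Sox5 KO and of Hes1 in Sox5 KO kept their direction and their side of the threshold in every alternative run, except that Notch2 in Nono KO and Jag1 in Sox5 KO do not reach the 2-fold minimum. The number of members called in Xap5 KO was 2 with at least 10 counts in every library and 3 in a fit of the groups compared alone. In Sox5 KO it was 3 with the length and GC offset and 3 when a 2-fold change was required, and between Xap5 KO and Nono KO it was 2 with at least 10 counts in every library. Of the members, the filter of at least 10 counts keeps only Notch1, Notch2, Jag1 and Hes1, so its counts are out of fewer genes. It leaves out Notch3, Dll1 and the other sparse members. Shares over all genes are not given for that filter, the offset, the replicate block or the fit of the groups alone. A 2-fold minimum left 5 other pathway genes called in each knockout against WT. DESeq2 called 6 members in Nono KO and 5 in each other knockout against WT, and 8 between Nono KO and Sox5 KO. Leaving out 1 library gave 4 to 5 members called in Xap5 KO, 5 to 6 in Nono KO and 3 to 5 in Sox5 KO against WT. Between knockouts it gave 3 to 5 for Xap5 KO and Nono KO, 5 to 6 for Xap5 KO and Sox5 KO and 6 to 7 for Nono KO and Sox5 KO. Over all tested genes the same fits called 4627 to 6140, 5091 to 6610 and 6866 to 8232 against WT. Between knockouts they called 6474 to 7026, 7607 to 8278 and 7840 to 8538, in the same order.

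With the length and GC offset the sign turned, with the cause not tested, for Notch1 in Sox5 KO (0.26), Notch2 in Xap5 KO (0.069), Jag2 in Nono KO (0.24), Furin in Sox5 KO (0.14, called), Mib1 in Sox5 KO (0.094), Poglut2 in Xap5 KO (-0.060) and Spen in Nono KO (0.027). Library totals turned Notch4 between Xap5 KO and Sox5 KO (0.039) and Poglut2 in Xap5 KO (-0.011). Leaving out 1 library turned log2 fold changes that were not called. Against WT they ranged from -0.081 to 0.035 for Notch2 in Xap5 KO, -0.48 to 7.53 for Notch3 in Nono KO, -1.99 to 6.02 for Notch3 in Sox5 KO, -1.05 to 1.27 for Notch4 in Nono KO, -0.49 to 0.19 for Jag2 in Nono KO, -0.41 to 0.33 for Dll1 in Sox5 KO, -0.064 to 0.29 for Hey1 in Xap5 KO, -0.045 to 0.13 for Maml3 in Xap5 KO and -0.0087 to 0.074 for Poglut2 in Xap5 KO. Notch4 between Xap5 KO and Sox5 KO ranged from -0.56 to 0.25.

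Replicate numbers did not pair the libraries: deviations of the 15 same-number pairs correlated at -0.02 to 0.05, and none passed 0.1. With a replicate block 6 members were called in Nono KO and 4 in each other knockout against WT, Notch4 being the one lost in Xap5 KO (adjusted p = 0.116) and in Sox5 KO (0.0968), and the values turned for Notch4 between Xap5 KO and Sox5 KO (0.017), Dll1 in Sox5 KO against WT (0.11) and Hey1 in Xap5 KO against WT (-0.14).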
